A study of Mus musculus with 14 samples.

Results

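The glutathione S-transferases described here are 10 genes, taken by name from the 24421 genes of the count table. They comprise 6 of the Mu class (Gstm1, Gstm2, Gstm4, Gstm5, Gstm6 and Gstm7), 1 of the Alpha class (Gsta4), 1 of the Pi class (Gstp1) and 2 of the Omega class (Gsto1 and Gsto2). RNA was sequenced from the hippocampus of 7 naive male mice labelled LPAR2-/- and 7 naive male WT mice, with 1 library per mouse after depletion of ribosomal RNA. The labels name the strain of both groups as 129.C57Bl6 and an age of 10 to 12 weeks, whereas the text deposited with the series describes older animals, so that the age is uncertain. The knockout mice lack part of exon 2 of Lpar2, which encodes a receptor for lysophosphatidic acid. Homozygotes formed a colony, and the controls, of C57BL/6 and 129/SvJ descent, came from another. Genotype and colony can therefore not be told apart. The labels and the methods of the study give the tissue as hippocampus, whereas its results name the dentate gyrus, so that the dissected region is uncertain. Nothing states that a mouse number marks a shared litter or day.

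Glutathione S-transferases join the tripeptide glutathione to reactive, electron-poor molecules, which can then be exported from the cell. Substrates include drugs, environmental toxins and breakdown products of oxidized lipids. Mu class enzymes are prominent in astrocytes of the brain, and the Pi class enzyme is a known marker of oligodendrocytes. Gsta4 is known for its activity towards 4-hydroxynonenal, an aldehyde that arises when membrane lipids are oxidized. The Omega class enzymes differ from the others by a cysteine in the active site and reduce dehydroascorbate, the oxidized form of vitamin C. Many genes of the family are targets of NRF2, a transcription factor that responds to oxidative stress.

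Library totals ran from 15434620 to 23258949 counts, and the groups were not separated by them (exact two-sided permutation test, p = 0.893). Lpar2 itself had 144 to 234 counts in the libraries labelled LPAR2-/- and 27 to 66 counts in the WT libraries (log2 fold change 2.01, edgeR, adjusted p = 8.2e-07). This goes against the label, and counts per gene do not separate the deleted part, so that every direction given here is that of the libraries labelled LPAR2-/- against those labelled WT. Defining markers of neurons, astrocytes and the dentate gyrus were all detected. Among 13 marker lists, only the summed level of 6 striatal genes passed the adjusted threshold (67.1 to 77.8 CPM against 57.7 to 68.2 CPM, exact permutation test, p = 0.0012, adjusted p = 0.015). The sum of 10 meningeal fibroblast markers, all detected and 1 of them called higher, was 102 to 468 CPM in mice labelled LPAR2-/- (median 273) and 78.1 to 343 CPM in WT mice (median 139, exact permutation test, p = 0.0577, adjusted p = 0.316). Of 5 dentate gyrus markers 1 was called higher, and their sum was 484 to 762 CPM in mice labelled LPAR2-/- and 483 to 719 CPM in WT mice (adjusted p = 0.754). The astrocyte sum was 4982 to 5831 CPM in mice labelled LPAR2-/- and 5167 to 5898 CPM in WT mice (adjusted p = 0.708). Mouse 2 labelled LPAR2-/- stood apart with 295.6 CPM of choroid plexus markers, against 29.4 to 53.9 CPM in the other mice of its group and 30.6 to 36.0 CPM in WT mice. Mouse 3 labelled LPAR2-/- had 4118 CPM of oligodendrocyte markers, against 1020 to 2144 CPM in the other 13 mice. WT mouse 2 had 331 CPM of CA1 markers, against 83.8 to 169 CPM in the other 13 mice. The part of these markers in the differences of the members was not tested. CPM are read counts scaled to a common library size with the TMM method, which corrects for differences in RNA composition. In whole tissue, more cells of a type and more RNA per cell cannot be told apart.

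The 6 Mu class members lie in a cluster on chromosome 3 of mm10, between 107895854 and 108044859, within 149 kb. Gstm3, which is not a member, lies between Gstm6 and Gstm2. Of the 6 members, Gstm5 is on the plus strand, and the other 5 are on the minus strand. Their coding sequences share 69.8% to 86.0% of aligned positions over the 15 pairs, which matters for reads that could stem from more than 1 of them. A stretch of 60 coding bases near the start of each Mu class gene is shown to make this likeness visible, from coding base 4 to 63, or 13 to 72 in Gstm5, whose frame is longer. Capitals mark bases that differ from Gstm1, and the sequences come from principal transcripts of GENCODE M21.
Gstm1: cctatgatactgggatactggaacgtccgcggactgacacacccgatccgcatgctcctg
Gstm2: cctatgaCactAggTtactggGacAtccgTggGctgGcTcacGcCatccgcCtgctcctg
Gstm4: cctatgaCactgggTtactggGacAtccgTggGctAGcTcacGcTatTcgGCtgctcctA
Gstm5: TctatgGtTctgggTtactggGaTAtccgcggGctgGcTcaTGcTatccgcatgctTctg
Gstm6: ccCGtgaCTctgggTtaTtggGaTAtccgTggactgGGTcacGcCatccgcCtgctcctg
Gstm7: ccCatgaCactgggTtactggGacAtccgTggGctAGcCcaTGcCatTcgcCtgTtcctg
Gstm2 differs from Gstm1 at 12 of the 60 positions, and Gstm6 and Gstm7 at 16 each. Because reads that match several genes or places were left out of the counts, near-identical stretches lower the counts of both copies. Of all 50-base words in the transcripts of Gstm4, Gstm5, Gsta4, Gsto1 and Gsto2, 0% occur in another gene. The share was 0.532% for Gstm7, 5.66% for Gstm2, 5.97% for Gstm6, 18.9% for Gstm1 and 33.7% for Gstp1, where all shared words are those of Gstp2. Counts of Gstm1, Gstm2, Gstm6 and Gstp1 are therefore the less certain ones.

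The family was led by 2 Mu class genes. Per kilobase of counted exon, Gstm5 had a mean level of 164 CPM over the 14 mice and Gstm1 114 CPM. Gsta4, Gstm7 and Gstp1 followed, in an order that differed between the groups. In mice labelled LPAR2-/- the means were 37.6 for Gstm7, 36.9 for Gsta4 and 33.9 CPM per kilobase for Gstp1, and in WT mice 35.3 for Gsta4, 33.7 for Gstp1 and 30.7 for Gstm7. Over the 14 mice, Gsto1 followed at 20.9, Gstm6 at 12.3 and Gstm4 at 7.09 CPM per kilobase. Gstm2 at 0.852 and Gsto2 at 0.707 CPM per kilobase were the lowest. Gsta4 exceeded Gstm7 in 11 of 14 mice, Gstm7 exceeded Gstp1 in 4 of 14, all of them labelled LPAR2-/-, and Gstm2 exceeded Gsto2 in 10 of 14, so that the ranges of these genes overlap. All other neighbours were in the same order in 14 of 14 mice, with ranges that did not overlap. Mu class genes made up 78.5% of the summed level per kilobase in mice labelled LPAR2-/- and 78.4% in WT mice. Within that sum, Gstm7 took 8.70% ± 1.10 (SD, n = 7) against 7.37% ± 0.453. Gstm5 took 38.4% ± 0.620 against 39.1% ± 0.828.

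**Figure D1:**
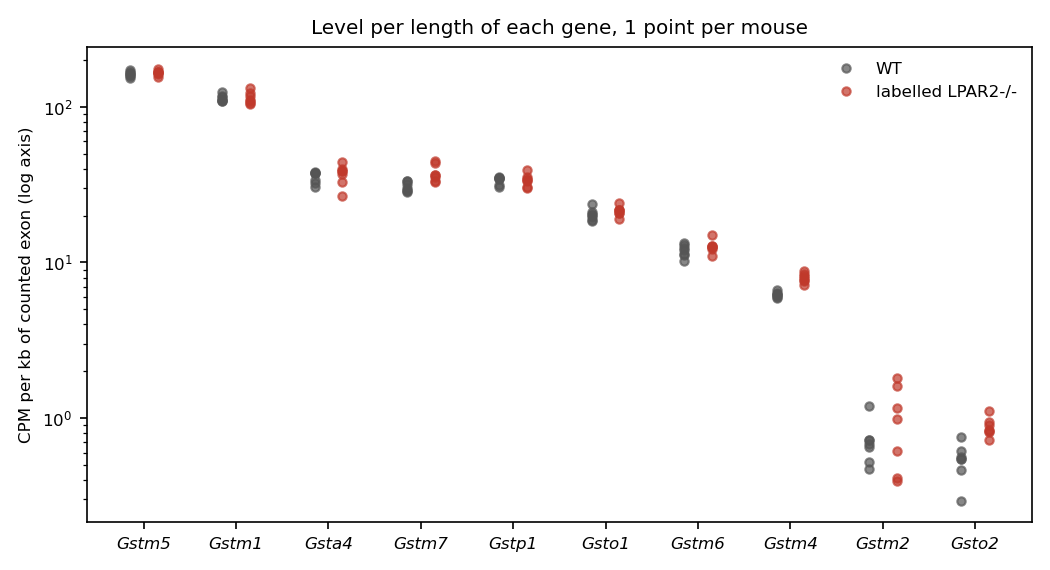
Level of each gene in CPM per kilobase of counted exon on a log axis, with 1 point per mouse, WT in grey and mice labelled LPAR2-/- in red. Gstm5 and Gstm1 sit highest in every mouse, and Gstm2 and Gsto2 lie lowest with overlapping ranges.

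Whether the genes differed between the genotypes was tested with the quasi-likelihood F test of edgeR, with p-values adjusted over all 14897 genes that passed the filter on low counts. All 10 members passed this filter. Gstm4, Gstm7 and Gsto2 rose in mice labelled LPAR2-/-, with log2 fold changes of 0.35, 0.29 and 0.71, and no member fell. Over all genes 3.32% were called higher (494 genes) and 3.46% lower (515 genes), 6.77% in either direction. With upper quartile scaling the split was 616 higher and 377 lower, and the same 3 members were past the threshold. At an unadjusted p under 0.05, 3 members stood beside 22.4% of all genes. The log2 fold change was above 0 in 10 of 10 members, with a median of 0.083, beside 7613 positive and 7284 negative genes and a median of 0.0029 over all genes tested. The summed level of the members was 464 ± 18.6 CPM (SD, n = 7) in mice labelled LPAR2-/- and 444 ± 11.3 CPM in WT mice.

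Gstm4, a Mu class enzyme (chr3:108040408-108044859), had 12.0, 13.2 and 14.7 CPM as lowest, median and highest value in mice labelled LPAR2-/-. In WT mice, the values were 9.95, 10.4 and 11.2 CPM, from 169 to 237 counts per library. All 7 mice labelled LPAR2-/- exceeded all 7 WT mice, a separation found in either direction in 1.77% of all genes tested. The log2 fold change was 0.35 ± 0.057 (SE, adjusted p = 0.00198, edgeR), with a 95% interval from 0.23 to 0.47. The exact two-sided permutation test gave p = 0.000583, the smallest that 7 against 7 mice allow. Leaving out each mouse in turn kept the adjusted p between 0.00166 and 0.00587.

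Gstm7 (chr3:107926334-107931745) is a further Mu class enzyme. Its lowest, median and highest values were 43.0, 47.8 and 58.2 CPM in mice labelled LPAR2-/- and 36.9, 39.2 and 43.7 CPM in WT mice. Of the 7 mice labelled LPAR2-/-, 5 exceeded every WT mouse, and mice 6 and 7 were the highest. Mice 6 and 7 also had the highest dentate gyrus marker sums of the 14 mice, 759 and 762 CPM. WT mouse 5, with the highest Gstm7 of its group, had a sum of 546 CPM, against a WT median of 596 CPM. The part of these markers in the Gstm7 level was not tested. The log2 fold change was 0.29 ± 0.071 (SE, adjusted p = 0.0222, edgeR), with a 95% interval from 0.14 to 0.44. The exact permutation test gave p = 0.0035. Without WT mouse 2, the library with the most CA1 markers, the log2 fold change was 0.28 and the adjusted p was 0.0518. Gstm7 stayed past the threshold when any other mouse was left out.

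The level of Gsto2, the dehydroascorbate reductase of the Omega class (chr19:47865545-47886305), was low. Libraries labelled LPAR2-/- held 18 to 30 counts and WT libraries 9 to 17 counts. In CPM, the lowest, median and highest values were 1.00, 1.16 and 1.54 against 0.410, 0.762 and 1.05. Of the mice labelled LPAR2-/-, 6 of 7 lay above all WT mice, and WT mouse 6 with 1.05 CPM lay above mouse 5 labelled LPAR2-/- with 1.00 CPM. The log2 fold change was 0.71 ± 0.18 (SE, adjusted p = 0.0257, edgeR), with a 95% interval from 0.33 to 1.09, and the exact permutation test gave p = 0.0012. The highest value was that of mouse 2 labelled LPAR2-/-, the library with the choroid plexus markers, without which the log2 fold change was 0.65 and the adjusted p was 0.0537.

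**Figure D2:**
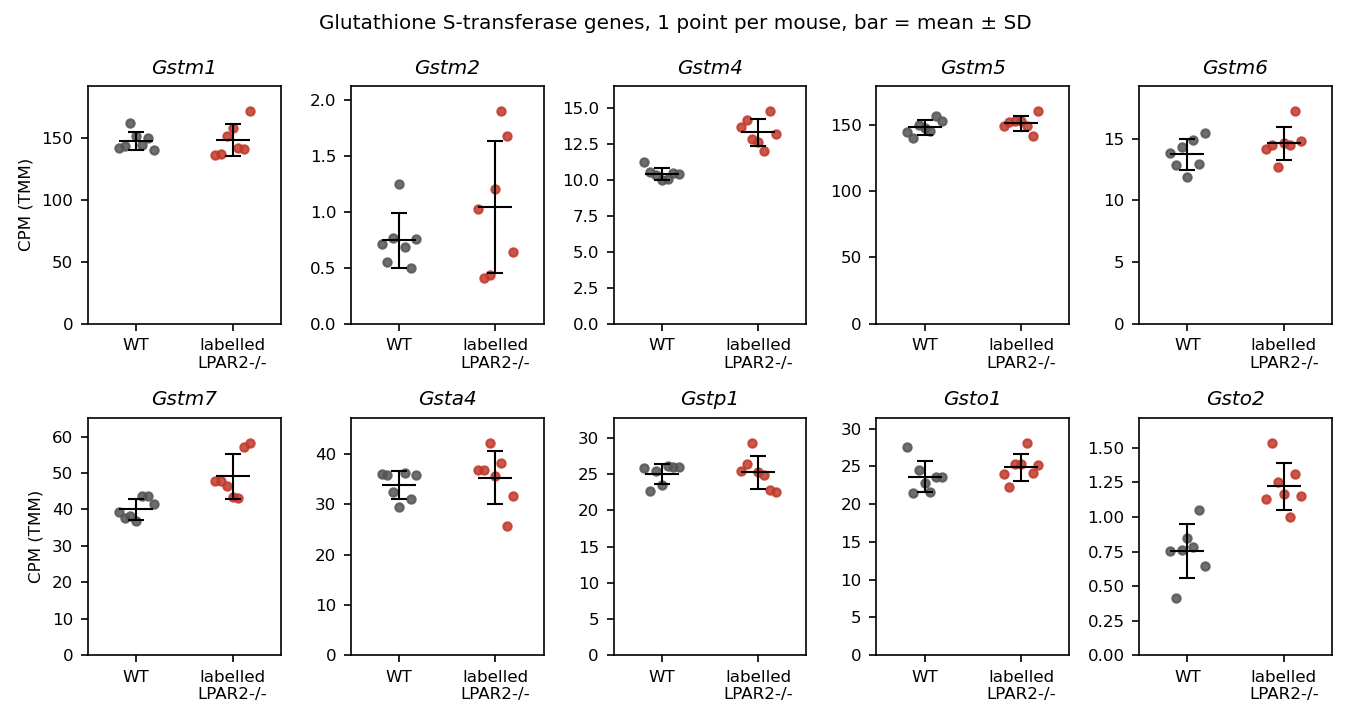
CPM (TMM) of each of the 10 genes on linear axes from 0, with 1 point per mouse, WT in grey and mice labelled LPAR2-/- in red, and bars for the mean ± SD of 7 mice. The groups are apart for Gstm4, overlap slightly for Gstm7 and Gsto2, and overlap widely for the others.

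The other Mu class genes did not pass the test. Gstm5 (chr3:107895854-107898685), the most abundant member per length, had 142, 153 and 160 CPM as lowest, median and highest value in mice labelled LPAR2-/- and 141, 148 and 157 CPM in WT mice. Its log2 fold change was 0.030 with a narrow 95% interval from -0.042 to 0.10 (adjusted p = 0.654). Gstm1 (chr3:108012250-108017973) had 136, 142 and 171 CPM against 141, 144 and 162 CPM, and the interval of its log2 fold change reached from -0.10 to 0.11 (adjusted p = 0.972). The groups overlapped widely in both of these abundant genes. Gstm6 (chr3:107938848-107943749) had 12.7, 14.5 and 17.2 CPM against 11.9, 13.8 and 15.5 CPM, with a log2 fold change of 0.089 (interval -0.062 to 0.24, adjusted p = 0.496). Gstm2 (chr3:107981702-107986436) was carried by 8 to 36 counts per library and varied most among mice. Its coefficient of variation was 56.6% in mice labelled LPAR2-/- and 33.0% in WT mice, against 3.76% and 3.69% for Gstm5. The log2 fold change of Gstm2 was 0.47, and its interval from -0.24 to 1.17 was the widest of the members (adjusted p = 0.437). Mice 4, 5 and 6 labelled LPAR2-/- had the highest Gstm2 of their group, 1.21, 1.89 and 1.67 CPM, and also its highest sums of meningeal fibroblast markers, 415, 468 and 368 CPM.

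Within the cluster, the upper ends of the intervals of Gstm5 and Gstm1, 0.10 and 0.11, lay below the lower ends of those of Gstm4 and Gstm7, 0.23 and 0.14. The intervals were not adjusted for the number of genes, and differences between members were not tested.

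Outside the Mu class, Gsta4 (chr9:78191966-78209349), the 4-hydroxynonenal transferase, had 25.6, 36.9 and 42.2 CPM as lowest, median and highest value in mice labelled LPAR2-/- and 29.4, 35.8 and 36.3 CPM in WT mice. Both the lowest and the highest mouse were labelled LPAR2-/-, mice 6 and 3. The log2 fold change was 0.064 (interval -0.12 to 0.25, adjusted p = 0.717). Gstp1 (chr19:4035411-4037912), the Pi class enzyme, had 22.5, 25.3 and 29.3 CPM against 22.6, 25.8 and 26.1 CPM, with a log2 fold change of 0.014 (interval -0.11 to 0.14, adjusted p = 0.924). Gsto1 (chr19:47854989-47864788), the other Omega class reductase, lies directly upstream of Gsto2 on the same strand. It had 22.2, 25.2 and 28.1 CPM against 21.5, 23.6 and 27.6 CPM and a log2 fold change of 0.077 (interval -0.053 to 0.21, adjusted p = 0.493).

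**Figure D3:**
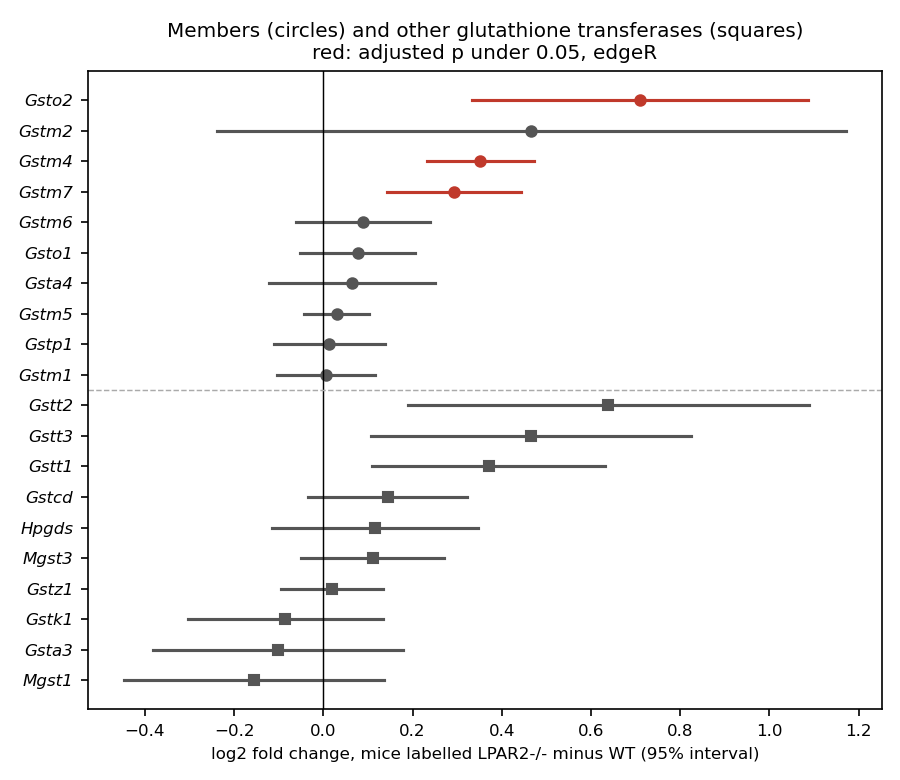
Log2 fold change of mice labelled LPAR2-/- against WT mice, with 95% intervals, for the 10 members (circles) and 10 further glutathione transferases (squares). Gsto2, Gstm4 and Gstm7 in red passed the adjusted threshold of 0.05, and the intervals of Gstt1, Gstt2 and Gstt3 exclude 0 without passing it.

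A list of 17 other glutathione transferases was read from the same fit. Of these 16 were in the count table, 10 were tested, and 0 passed the threshold by edgeR, DESeq2 or limma, with 7 positive and 3 negative values and a median log2 fold change of 0.11. At an unadjusted p under 0.05 there were 3 of the 10, beside 22.4% of all genes. These were genes of the Theta class, whose enzymes act on small halogenated compounds. The log2 fold changes were 0.37 for Gstt1 (adjusted p = 0.084), 0.64 for Gstt2 (adjusted p = 0.085) and 0.47 for Gstt3 (adjusted p = 0.113). For each of them 6 of 7 mice labelled LPAR2-/- lay above the WT median. Leaving out a mouse took Gstt2 past the threshold without mouse 2 labelled LPAR2-/- (adjusted p = 0.0435) and without WT mouse 1 (0.0259), and Gstt1 without mouse 7 labelled LPAR2-/- (0.0410). Without mouse 5 labelled LPAR2-/- the log2 fold changes were 0.28 for Gstt1 (adjusted p = 0.159), 0.49 for Gstt2 (0.167) and 0.41 for Gstt3 (0.200). Mice 4 and 5 labelled LPAR2-/- had the highest values of all 3 genes and also the highest sums of meningeal fibroblast markers. Mouse 6 labelled LPAR2-/-, next in that sum (368 CPM), had 5.49, 1.61 and 2.03 CPM of Gstt1, Gstt2 and Gstt3, below its group's medians. WT mouse 4, highest of its group (343 CPM), had 4.70, 1.35 and 2.25 CPM, against WT medians of 4.89, 1.34 and 1.65. The part of these markers in the levels of the 3 genes was not tested. The log2 fold changes of Gsta3, Gstk1, Gstz1, Gstcd, Mgst1, Mgst3 and the prostaglandin D synthase Hpgds ranged from -0.16 (Mgst1) to 0.14 (Gstcd), with adjusted p from 0.334 to 0.879.

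Enzymes that make and recycle the glutathione used by the transferases were read next. Of 34 genes of glutathione supply and use, 30 were tested, 4 rose and 0 fell by edgeR, with a median log2 fold change of 0.056. Over all genes 3.32% were called higher and 3.46% lower. At an unadjusted p under 0.05 there were 7 of the 30, near the 22.4% of all genes. Glutathione reductase (Gsr), which regenerates glutathione from its oxidized form, had 34.0 to 50.1 CPM in mice labelled LPAR2-/- and 25.3 to 33.0 CPM in WT mice, with no overlap (log2 fold change 0.57, adjusted p = 0.0007). Gsr lies on chromosome 8, as does Lpar2. Idh2, a mitochondrial source of NADPH, had 38.0 to 54.1 CPM against 31.3 to 38.4 CPM (log2 fold change 0.35, adjusted p = 0.0129). Glutathione synthetase (Gss) had 34.9 to 53.7 CPM against 29.3 to 36.2 CPM (0.34, adjusted p = 0.0333). Gss was not past the threshold without mouse 1 or 7 labelled LPAR2-/- or without WT mouse 2, 3, 4, 5 or 6, with adjusted p up to 0.0787. Glo1, which uses glutathione to clear methylglyoxal, spread from 68.2 to 218 CPM in mice labelled LPAR2-/- but from 64.5 to 70.1 CPM in WT mice (1.03, adjusted p = 0.0200).

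Among 18 known NRF2 targets outside glutathione metabolism, 17 were tested, 1 rose and 1 fell, with a median log2 fold change of 0.10 and 14 positive and 3 negative values. At an unadjusted p under 0.05 there were 8 of the 17, beside 22.4% of all genes. The epoxide hydrolase Ephx1 had a median of 26.5 CPM in mice labelled LPAR2-/- and 21.2 CPM in WT mice, with overlapping groups (log2 fold change 0.33, adjusted p = 0.0451). Ephx1 was past the threshold in only 4 of 14 fits that left out a mouse, those without mouse 6 or 7 labelled LPAR2-/- or WT mouse 1 or 7, and not with limma (adjusted p = 0.0604). Sulfiredoxin (Srxn1), which reactivates oxidized peroxiredoxins, had 77.6 to 90.9 CPM against 93.1 to 119 CPM, with no overlap, and fell by 0.28 on the log2 scale (adjusted p = 0.0059).

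The promoters of the members were read from RefSeq (GRCm38.p6) to see which hold the letters of the antioxidant response element, to which NRF2 binds. Both strands of the 250 bases upstream of a start were searched for TGACNNNGC and for TGANTCA, the related AP-1 element. The letters of both motifs can overlap, but no match here did. Other spellings of the antioxidant response element were not searched. Of 15 promoters of 9 matched members, 3 held a match, beside 10.2% of 32851 promoters for TGACNNNGC, 6.75% for TGANTCA and 16.1% for either. The promoters are shown for the 3 members that rose and for Gstm5, up to the outermost annotated end of the gene, with matches in capitals, 5′ to 3′ on the strand of the gene.
Gstm4, chr3:108044895-108045109, minus strand: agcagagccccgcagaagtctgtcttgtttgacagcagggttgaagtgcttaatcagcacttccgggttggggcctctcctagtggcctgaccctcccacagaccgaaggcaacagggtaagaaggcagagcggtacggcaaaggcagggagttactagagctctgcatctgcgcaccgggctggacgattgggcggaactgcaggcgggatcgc
Gstm7, chr3:107931818-107932067, minus strand: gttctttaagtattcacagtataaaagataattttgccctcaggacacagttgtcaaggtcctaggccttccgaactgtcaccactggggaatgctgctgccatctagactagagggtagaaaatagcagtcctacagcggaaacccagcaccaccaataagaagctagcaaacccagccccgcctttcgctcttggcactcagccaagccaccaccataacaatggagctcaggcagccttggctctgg
Gsto2, chr19:47865295-47865533, plus strand: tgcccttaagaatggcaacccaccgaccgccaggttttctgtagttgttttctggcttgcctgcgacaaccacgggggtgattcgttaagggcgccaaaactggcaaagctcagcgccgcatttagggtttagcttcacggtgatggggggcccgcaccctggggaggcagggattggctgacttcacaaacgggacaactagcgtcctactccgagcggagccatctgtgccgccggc
Gstm5, chr3:107895604-107895820, plus strand: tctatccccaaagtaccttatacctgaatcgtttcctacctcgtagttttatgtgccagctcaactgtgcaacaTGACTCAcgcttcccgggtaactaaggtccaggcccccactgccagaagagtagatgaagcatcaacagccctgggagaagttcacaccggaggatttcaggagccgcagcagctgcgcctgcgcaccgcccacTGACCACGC
In Gstm5, whose level did not pass the test, TGACTCA stood 176 to 170 bases and TGACCACGC 42 to 34 bases before the start. The 3 other sequences held no match. An additional start of Gstm7 within the gene had TGACAAAGC 129 to 121 bases upstream, and Gstp1 had TGAGTCA 74 to 68 bases upstream. A match is only a run of letters, and its absence from this window says nothing about binding of a factor.

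Since the colonies were kept apart, genes near the members were read from the same fit. Within 1 Mb of a member, the fit held 121 other genes, with 5 called higher and 5 called lower, beside 6.77% called over all genes. Near the Mu cluster 36 genes were tested, and 0 were higher and 2 lower, Kcna2, a potassium channel (log2 fold change -0.21, adjusted p = 0.0486), and Rbm15 (-0.36, adjusted p = 0.0384). Near Gsto1 and Gsto2 1 of 17 genes was called. It was Itprip (chr19:47894596-47919299) beyond Gsto2 on the opposite strand, with 1.68, 2.20 and 2.62 CPM as lowest, median and highest value in mice labelled LPAR2-/- and 0.819, 1.30 and 1.65 CPM in WT mice, which do not overlap (0.78, adjusted p = 0.0085). Near Gsta4, C920006O11Rik was higher (0.37, adjusted p = 0.0334) and Lrrc1 lower (-0.36, adjusted p = 0.0257). Near Gstp1, 5 of 56 genes were called, Ighmbp2, Coro1b and Tbc1d10c higher and Chka and Npas4 lower. Leaving out 1 mouse changed the total of 10 called genes to between 3 and 12. It was 6 or fewer without mouse 1, 2, 4, 5 or 6 labelled LPAR2-/- and without WT mouse 2, 3, 4, 5 or 6.

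**Figure D4:**
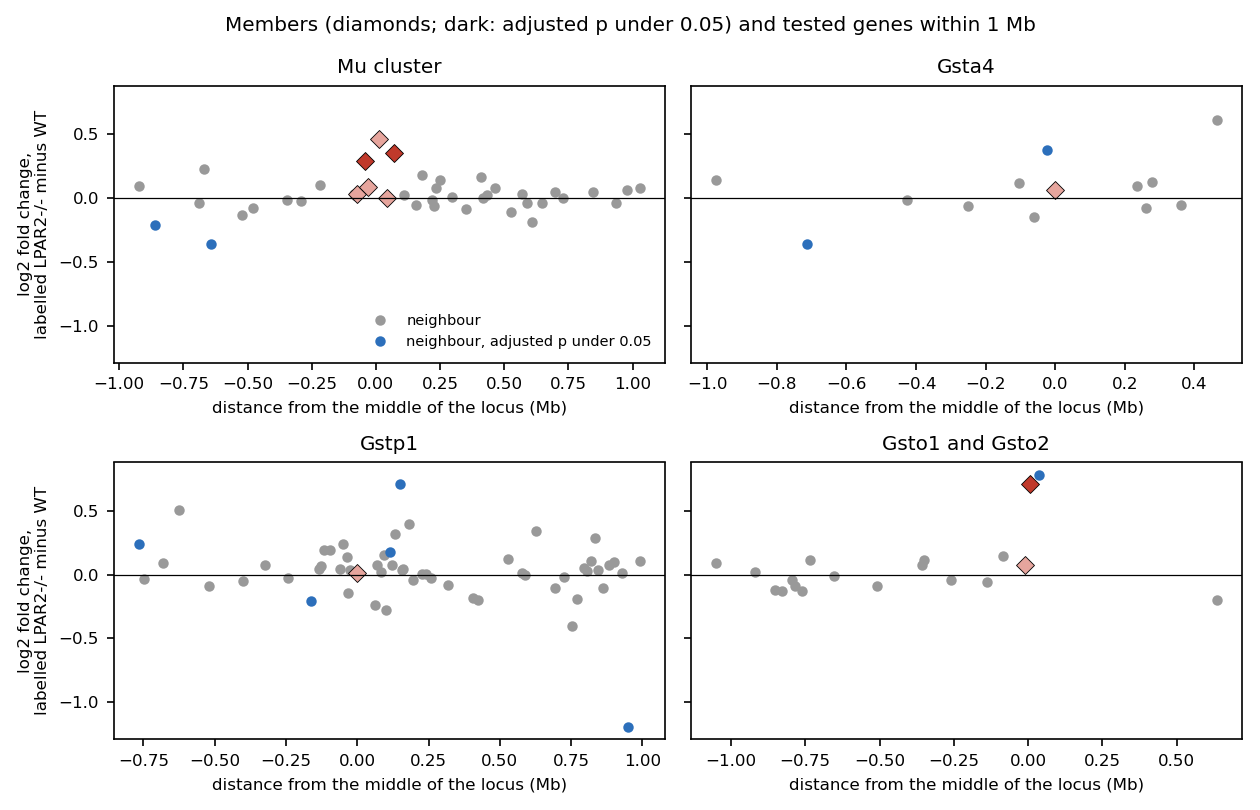
Log2 fold change of mice labelled LPAR2-/- against WT mice for members (diamonds) and tested genes within 1 Mb (circles), by distance in Mb from the middle of each of 4 loci. Dark diamonds and blue circles passed the adjusted threshold of 0.05, and Gsto2 and Itprip stand side by side at 0.71 and 0.78.

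How the members vary together among mice was examined with log2 CPM after removal of the genotype means, over 14 mice and 45 pairs. No pair passed the threshold after adjustment by Pearson or Spearman correlation (permutation test within genotype, 100000 draws), with 1 and 2 pairs at an unadjusted p under 0.05. Pearson's r ranged from -0.53 to 0.69 with a median of -0.029, and 21 of 45 pairs were above 0. The highest was that of Gsta4 and Gstp1 (r = 0.69, permutation p = 0.0199, adjusted p = 0.705, Spearman's rho = 0.50, permutation p = 0.0917, adjusted p = 0.806). It was 0.58 without the 2 mice farthest from the median of Gsta4, and 0.85 within the 7 mice labelled LPAR2-/- and 0.22 within the 7 WT mice. Mouse 3 labelled LPAR2-/-, with the most oligodendrocyte markers (4118 CPM), had the highest Gsta4 and Gstp1, 42.2 and 29.3 CPM. Mouse 6 labelled LPAR2-/-, with the fewest (1020 CPM), had the lowest Gsta4, 25.6 CPM, and 22.7 CPM of Gstp1. Among WT mice it was mouse 5, with the fewest oligodendrocyte markers (1266 CPM), that had the highest Gsta4 and Gstp1, 36.3 and 26.1 CPM. The part of these markers in the levels of the 2 genes was not tested. Gstm4 and Gstm7, which both rose, had r = 0.48 (permutation p = 0.15, adjusted p = 0.705, Spearman's rho = 0.54, permutation p = 0.0761, adjusted p = 0.806), and r was 0.093 without the 2 mice farthest from the median of Gstm4. Within the groups it was 0.66 in mice labelled LPAR2-/- and -0.066 in WT mice, and the difference between the groups was not tested.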

How the data were processed

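The deposited counts are numbers of reads per gene, which the authors obtained with cutadapt 1.18 for trimming, STAR for alignment to mm10 and featureCounts 1.6.3 for counting reverse-strand reads over exons, dropping reads with several matching genes or places. Depths were 15434620 to 23258949 counts per mouse, and the limit behind a count of 0 is 3 counts, which covers counting error only. A deposited table of normalized values, made with DESeq2 1.22.2, was not used here. Groups were taken from the labels.

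Of 24421 genes, 14897 passed filterByExpr. After TMM normalization, 7 and 7 mice were compared by genotype alone in edgeR 4.0.16 (R 4.3.3, quasi-likelihood, robust), and the threshold was 0.05 after Benjamini-Hochberg adjustment. Intervals of 95% were computed from the SE and the total degrees of freedom of the fit, which add prior to residual ones. Exact permutation tests used all 3432 arrangements of the mice, and correlations used a prior count of 2 on log2 CPM. Coding sequences and 50-base words came from GENCODE M21 and were aligned with Biopython 1.88. The procedures were tested on simulated data.

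The 10 members and the lists were chosen with earlier results of these data known. Named were all members, tested glutathione transferases, genes of the other lists and neighbours past the threshold, and for each called member the 3 genes whose level went most closely with it. Alternatives were DESeq2 1.42.0, limma 3.58.1 on log2 normalized counts, scaling by DESeq2 size factors or by the upper quartile, no filter, at least 10 counts in every library, a replicate block of mouse numbers, leaving out each mouse, and windows of 0.5 and 2 Mb. The lowest chi-square per degree of freedom between libraries of a genotype was 3.29 over 42 pairs, so that no library was a copy.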

Additional observations from a re-analysis of the deposited data

Results flagged for a closer look

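The level of each member was examined for a mouse that lies far from the other 6 of its genotype, in 20 groups of 7 mice, and 1 was found. WT mouse 4 had 1.25 CPM of Gstm2, and the gap to the next WT mouse was 0.647 of the range of the group, above Dixon's critical value for 7 samples. WT mouse 4 also had the highest sum of meningeal fibroblast markers of its group, 343 CPM against 78.1 to 182 CPM in the other 6 WT mice, and the part of these markers in its Gstm2 level was not tested. Gstm2 rests on 8 to 25 counts in WT libraries. Chance gives such a gap in about 1 in 20 groups.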

How the results depend on the processing

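Gstm4 and Gstm7 were past the threshold under 7 of 7 alternative settings, and Gsto2 under 5 of 6 (adjusted p up to 0.0811), since it is left out when 10 counts are asked in every library. Leaving out each mouse gave 2 to 3 members higher and 0 lower. Without 1 mouse, log2 fold changes reached -0.033 for Gstm1 and -0.026 for Gstp1, which did not pass in any fit, while the other 8 members stayed above 0. In the fit that used mouse numbers as a replicate block, 314 genes were higher and 272 lower, the adjusted p of Gsto2 was 0.0811, and counts past the threshold were 2 for the members, 3 for genes within 1 Mb, 2 for glutathione supply and use (without Glo1, adjusted p = 0.0682, and Gss, 0.0539) and 1 for NRF2 targets (without Ephx1, 0.120). Correlations between mice of the same number ran from -0.33 to 0.31, with 3 of 7 above 0.1, and whether the numbers pair the mice was not tested. Limma left 1 NRF2 target (Srxn1), as Ephx1 had an adjusted p of 0.0604. The window of 0.5 Mb held 5 called genes and that of 2 Mb 14. Leaving out each mouse gave 275 to 660 genes higher and 292 to 725 lower, 3 to 12 genes called within 1 Mb, 0 to 1 other glutathione transferases, 3 to 4 genes of glutathione supply and use and 1 to 4 NRF2 targets. Counts over all genes were more than 1.5 times smaller in both directions without mouse 1 labelled LPAR2-/- or WT mice 2 or 5, and for lower genes also without mouse 5 labelled LPAR2-/- or WT mice 4 or 6. The cause was not tested. DESeq2 called 667 genes higher and 726 lower. By counts in place of level per kilobase, Gstm1 took 31.8% and Gstm5 32.6% of the members' sum in mice labelled LPAR2-/-. At 8 to 36 counts per library, depth limits what can be seen for Gstm2 and Gsto2. P-values measure the spread between mice of colonies kept apart.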

Other observations

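Of the glutathione transferases that were not tested, Gstm3, Gsta1, Gsta2, Gstp2, Gstt4 and Mgst2 had at most 4 counts in any library. Gsta2 had 0 counts in every WT library and up to 4 in those labelled LPAR2-/-, which lies near the limit of 3 counts that a count of 0 allows.

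The genes whose level went most closely with the members that rose were found by Pearson's r of log2 CPM after removal of the genotype means, over 14 mice and all genes tested. They are given as a description. For Gstm4 they were Klhdc3 (r = 0.93), Sidt1 (0.90) and Smap2 (0.90). For Gstm7 they were Ptchd1 (0.90), Utp14a (0.89) and Sf3a3 (0.89), and for Gsto2 Med28 (0.83), Slc38a10 (0.82) and Abcc10 (0.82). Sidt1 was past the threshold of edgeR with a log2 fold change of 0.25 (adjusted p = 0.0174). The other 8 were not, with log2 fold changes from -0.061 (Utp14a) to 0.053 (Klhdc3).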
